A study of Drosophila melanogaster with 15 samples.

Results

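The baseline difference between *foxo* mutant females and w1118 females kept in normoxia was described across all genes. The comparison takes 7 of the 15 RNA libraries of the series: 4 of *foxo* mutants and 3 of w1118 (numbered 2 to 4), all from whole mated females about 7 days old in ambient air, 5 flies per library. The labels give the mutant genotype as foxo, and the study names the stock as foxoΔ94 kept over the balancer TM6B and describes the flies as null mutants. w1118 is a laboratory strain with a mutant *white* gene and served as the control. The other 8 libraries hold both lines after 16 h at 1% oxygen, 4 each, and are used to look at the same line difference again. They also enter the filter on low genes and the estimate of spread behind every p-value, but not the normoxia means. The lines were not stated to share a background, so loss of FOXO and line background cannot be told apart in any value below. The study calls its replicates independent, and each is a pool of flies.

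FOXO is the forkhead transcription factor that the insulin pathway holds in check. Akt, activated through the insulin receptor, phosphorylates FOXO and keeps it out of the nucleus, and FOXO enters the nucleus when insulin signaling is low or the fly is stressed. In flies it is known for its part in growth control, nutrient stores, stress tolerance, innate immunity and lifespan, and it acts in the fat body, gut, muscle and other tissues. A whole female also holds a large share of ovary, whose transcripts make up much of the RNA.

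Values are deposited TPM, the abundance of a transcript as a share of all transcripts in a library, summed per gene. They hold no read totals, which leaves sequencing depth unknown and makes the spread between replicates the only measure of precision. Of the 10288 genes tested (those that averaged at least 1 TPM in 1 of the 4 groups of the series), 529 were higher and 292 lower in the mutants, at a limma adjusted p under 0.05 and more than 1.5-fold on log2(TPM + 1). Means are given ± SD over 4 mutant and 3 w1118 libraries. The calls are 5.14% and 2.84% of the genes tested (7.98% together). Because 1 is added before the logarithm, changes of low genes are understated. The median difference of all genes was 0.04 on the log2 scale. More than 2-fold differences were called for 292 genes higher and 177 lower in the mutants, and more than 4-fold differences for 62 and 70. The called genes were of moderate level: those higher in the mutants had median levels of 14.3 TPM in the mutants and 4.82 TPM in w1118, and those lower in the mutants had 2.98 TPM in the mutants and 14.1 TPM in w1118. Together the genes called higher took 4.94% to 6.76% of all transcripts in the mutant libraries and 2.03% to 2.45% in w1118. The genes called lower took 1.31% to 1.45% in the mutants and 3.12% to 3.80% in w1118. Library profiles correlated at 0.979 to 0.990 within the mutants, 0.982 to 0.985 within w1118, and 0.947 to 0.962 between the lines. The first principal component, with 57.9% of the variance, had all 4 mutant libraries on one side and all 3 w1118 libraries on the other. Leaving out any w1118 library lowered the calls: 348 genes were higher and 214 lower without library 2, 300 and 221 without library 3, and 374 and 208 without library 4. The libraries of the lines did not overlap in 523 of the 529 and 285 of the 292 called genes, and over all genes tested all mutant libraries lay above w1118 in 20.4% and below it in 15.5%. Of the calls, 243 of the 529 and 173 of the 292 held in each of the 7 fits that left out 1 library.

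**Figure D1:**
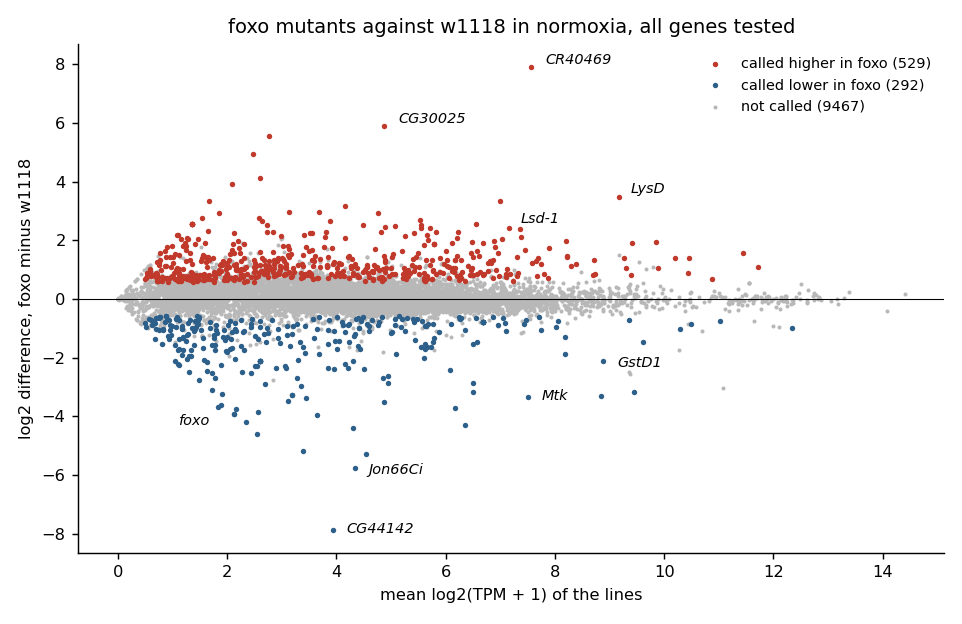
Each point is 1 of the 10288 genes tested, with the mean level of both lines in normoxia (x axis, log2(TPM + 1)) and the log2 difference of *foxo* mutants minus w1118 (y axis). The 529 genes called higher and 292 called lower in the mutants lie mostly at low and moderate levels, with *CR40469* at 7.91 as the highest.

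The *foxo* gene itself (3R:14056945-14087978, dm6) had 0.257, 0.192, 0.179 and 0.169 TPM in the mutant libraries, against 20.05, 20.8 and 21.2 TPM in the w1118 libraries. The log2 difference was −4.18 (SE 0.20, limma adjusted p = 1.92e-09). All mutant libraries lay near 0 and all w1118 libraries near 20 TPM, so every library bore out its label. In w1118, 5 RefSeq transcripts of *foxo* had values, led by one with a mean of 11.2 TPM. The mutant libraries had reads of a single transcript, with a mean of 0.199 TPM in the mutants and 4.14 TPM in w1118, and the other 4 transcripts were listed at 0 there. *w*, the ABC transporter gene whose mutation gives w1118 its white eyes, was below the level tested in both lines, at 0.667, 0.491, 0.790 and 0.801 TPM in the mutant libraries, against 0.295, 0.292 and 0.500 TPM in w1118.

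Calls around *foxo* were set beside those on the rest of its arm. Within 250 kb on either side 1 of 36 tested genes was called (2.78%, higher in the mutants), and within 1 Mb 8 of 143 (5.59%, 4 in each direction). Within 2 Mb the share was 7.67% of 352 genes, against 8.21% of the 2132 genes of the arm 3R that lie further away. The lower calls within 1 Mb include *CG44142* (log2 difference −7.86, SE 0.17, limma adjusted p = 1.25e-13). *CG45080* is another (log2 difference −0.73, SE 0.20, limma adjusted p = 0.0329), a call that each fit without 1 library lost. None of the 10 tested genes within 60 kb was called. The nearest on one side, *Npc2b*, a sterol carrier gene, had 38.5 ± 5.63 TPM in the mutants and 30.9 ± 2.58 TPM in w1118 (log2 difference 0.30, SE 0.17, limma adjusted p = 0.363). The nearest on the other side, *CG9922*, had 147 ± 10.3 TPM in the mutants and 163 ± 4.53 TPM in w1118 (limma adjusted p = 0.799). The nearest called gene, *CG43291* (3R:14234984-14244677), was higher in the mutants (log2 difference 1.21, SE 0.24, limma adjusted p = 0.00427), and the nearest called lower were the noncoding RNA *CR45680*, listed at 0 in every mutant library, and *CG9759* (log2 difference −1.47, SE 0.26, limma adjusted p = 0.00176). *CCHa2*, a nutrient-dependent peptide hormone of fat body and gut that promotes insulin release, lies within 1 Mb of *foxo* and was also higher (49.6 ± 16.6 TPM in the mutants and 17.01 ± 4.03 TPM in w1118, log2 difference 1.45, SE 0.24, limma adjusted p = 0.00104). Across the chromosome arms the share of genes called ran from 6.70% on 2R and 7.42% on X over 8.17% on 3R and 8.62% on 3L to 8.97% on 2L. The small chromosome 4 had 7 calls among 74 genes.

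The largest differences with at least 10 TPM in one line and no overlap of libraries lay on several chromosome arms. The noncoding RNA *CR40469* (X:122493-122706) had 2261, 3897, 2357 and 3605 TPM in the mutant libraries, against 11.6, 11.5 and 10.7 TPM in the w1118 libraries. On the log2 scale the difference was 7.91 (SE 0.34, limma adjusted p = 7.21e-10). It was high in every mutant library and low in every w1118 library, and the mutants spread far less than the distance between the lines. Higher too were the noncoding RNA *CR44129*, with 21.4, 22.3, 23.7 and 31.4 TPM in the mutant libraries, against 0.484, 0 and 1.08 TPM in the w1118 libraries, *CG1304* (54.8 ± 16.8 TPM in the mutants and 5.14 ± 1.93 TPM in w1118, log2 difference 3.18, SE 0.33, limma adjusted p = 1.39e-05) and *CG13091* (27.8 ± 16.9 TPM in the mutants and 2.13 ± 0.268 TPM in w1118, log2 difference 2.98, SE 0.52, limma adjusted p = 0.00164). No overlap of the lines was a condition for choosing these genes, and *CG13091* varied most among the mutant libraries.

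Several of the largest differences stood in genes with near-identical copies, between which reads can be split in error or by the sequence of the line. *CG30025*, a copy of the gamma and delta trypsin genes, had 270.1, 253, 183 and 207 TPM in the mutant libraries, against 2.47, 2.88 and 3.13 TPM in the w1118 libraries (log2 difference 5.89, SE 0.27, limma adjusted p = 1.19e-09), while its copy *gammaTry* was lower in the mutants (log2 difference −1.88, SE 0.36, limma adjusted p = 0.00305). Summed over the 4 copies the mutants did not pass the test (log2 difference −0.51, SE 0.26, limma adjusted p = 0.294). *CG32581* and *Cyp12d1-d* were listed at 0 in every w1118 library, with means of 29.9 and 9.16 TPM in the mutants, and *Ada1-1* was listed at 0 in every mutant library, with a mean of 11.9 TPM in w1118. Each has a copy, and the sums over the copies gave log2 differences of 0.54 for *CG32581* (limma adjusted p = 0.223), 0.55 for *Cyp12d1-d* (0.445) and −0.42 for *Ada1-1* (0.215), none past the threshold. The histone H1 copies went both ways, with *His1:CG33816* higher and *His1:CG33858* lower in the mutants, and their sum over 23 copies did not pass the test (log2 difference −1.40, SE 0.45, limma adjusted p = 0.0762). All sums over copies were added after the values had been seen.

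On the lower side the uncharacterized gene *CG44142* (3R:13312855-13313188) was listed at 0 in every mutant library and stood at 267, 210.3 and 221 TPM in w1118 (limma adjusted p = 1.25e-13). *Jon66Ci*, a gut serine protease of the Jonah family (3L:8391540-8392377), had 2.02, 1.87, 1.595 and 1.56 TPM in the mutant libraries, against 143, 119.5 and 186 TPM in the w1118 libraries. The mutants differed by −5.75 on the log2 scale (SE 0.41, limma adjusted p = 2.48e-07). No mutant library came near the w1118 libraries. Lower in the same way were *CG14499* (3.14 ± 1.998 TPM in the mutants and 168 ± 116 TPM in w1118, log2 difference −5.28, SE 0.50, limma adjusted p = 5.02e-06), *CG16775* (0.757 ± 0.252 TPM in the mutants and 63.9 ± 18.1 TPM in w1118, log2 difference −5.18, SE 0.25, limma adjusted p = 2.17e-09), *CG18853* (0.195 ± 0.243 TPM in the mutants and 27.8 ± 3.302 TPM in w1118, log2 difference −4.61, SE 0.21, limma adjusted p = 9.63e-10) and the noncoding RNA *CG32368* (19.1 ± 9.104 TPM in the mutants and 404 ± 249 TPM in w1118, log2 difference −4.28, SE 0.39, limma adjusted p = 3.08e-06). *CG14499* and *CG32368* were most abundant in w1118 library 2, and the 4 were chosen by a rule that asks for no overlap. *CG18853* (2R:7829062-7830429) overlaps at one end *CG30382* (2R:7830413-7831771), a proteasome gene that was also lower in the mutants. A small nucleolar RNA, *snoRNA:Me18S-A425*, and a microRNA precursor, *mir-9381*, were also among the largest differences. Poly-A libraries are not made for such short RNAs, and their values are given no weight here.

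**Figure D2:**
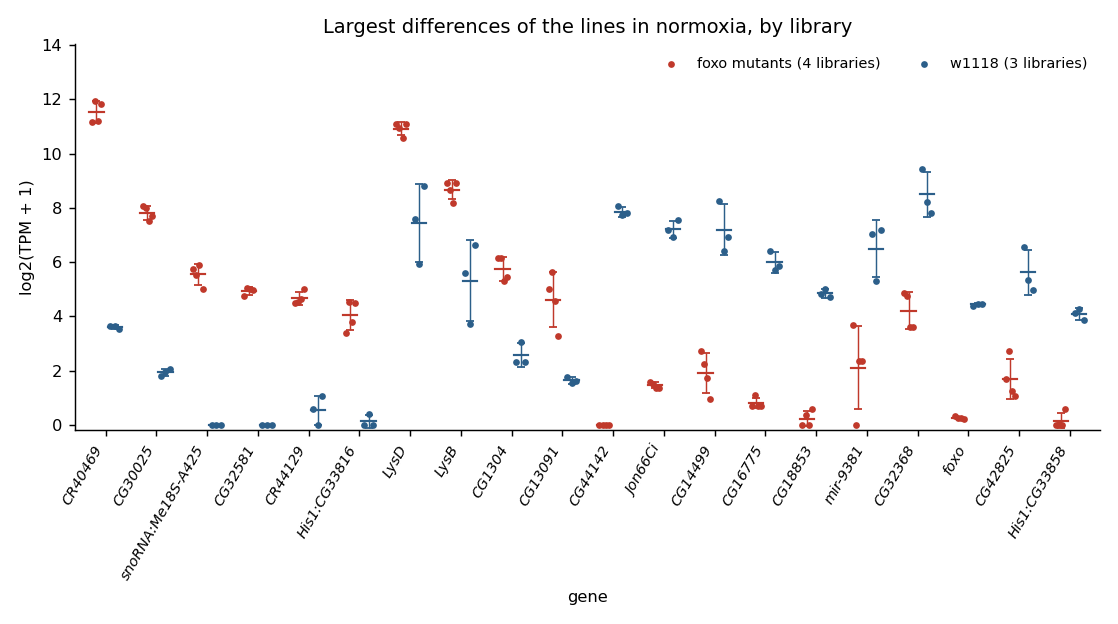
Points are single libraries on log2(TPM + 1) for the 10 genes with the largest differences in each direction, mutants left of w1118 for each gene, with the mean and SD as bars. The 20 genes were chosen to have no overlap of the lines, and *mir-9381*, *CG13091* and the lysozymes vary most within a line.

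Over all genes tested 7.98% were called, so the short lists of the insulin pathway cannot show whether their calls are fewer than usual. Of 15 genes of the insulin receptor, PI3K, Akt and TOR pathway 0 were called (1 at an unadjusted limma p under 0.05), with a median log2 difference of 0.22. The 7 textbook FOXO targets likewise had 0 calls (0 at an unadjusted limma p under 0.05) and a median of −0.00. *Thor*, which encodes the translational repressor 4E-BP and is the best known FOXO target in flies, had 145, 229, 173 and 195 TPM in the mutant libraries, against 270.4, 130.1 and 212 TPM in the w1118 libraries. This made a log2 difference of −0.09 (SE 0.29, limma adjusted p = 0.91). All mutant values lay inside the w1118 range. In the hypoxia libraries 3 of the 7 targets were called lower in the mutants and 0 higher. Their median there was −0.67, beside −0.22 over all genes. *Thor* (log2 difference −1.68 in hypoxia, limma adjusted p = 0.000323) and *Ilp6* (−1.89, limma adjusted p = 8.52e-05) were among the 3. *Pepck*, a gluconeogenic enzyme, overlapped as well (86.7 ± 40.2 TPM in the mutants and 72.7 ± 29.04 TPM in w1118, log2 difference 0.24, SE 0.48, limma adjusted p = 0.848). Of 9 insulin-like peptides and binding proteins 1 was called, *Ilp7*, an insulin-like peptide of neurons, at 0.185, 0.544, 0.374 and 0.3801 TPM in the mutant libraries, against 1.22, 1.098 and 0.964 TPM in the w1118 libraries. The log2 difference was −0.62 (SE 0.14, limma adjusted p = 0.0133). Its levels are close to the limit of the filter, and without mutant library 1 or w1118 library 2 or 3 it was not called.

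Housekeeping groups had few calls, beside 7.98% of all genes tested. Of 87 cytosolic ribosomal protein genes 0 were called (3 at an unadjusted limma p under 0.05; median −0.03), of 73 mitochondrial ribosomal protein genes 0 (12 unadjusted; median −0.16), of 67 genes of the respiratory complexes 0 (5 unadjusted; median −0.02) and of 13 glycolytic enzymes 0 (4 unadjusted; median 0.17). *RpL41* had 23008 ± 736 TPM in the mutants and 20573 ± 748 TPM in w1118 and *Gapdh1* 816 ± 25.2 TPM in the mutants and 845 ± 38.8 TPM in w1118. Of 33 proteasome subunits 1 was called, *CG30382*, a near-identical copy of *Prosalpha1*, which encodes a subunit of the alpha ring, with 170.0, 201, 185 and 190.5 TPM in the mutant libraries, against 427, 446 and 497 TPM in the w1118 libraries. On the log2 scale the difference was −1.29 (SE 0.13, limma adjusted p = 9.19e-06). The lines did not overlap, and the sum with *Prosalpha1* was lower in the mutants too (log2 difference −1.27, SE 0.13, limma adjusted p = 1.61e-05). The other 32 also lay below 0, with a median of −0.25 over the list, and none of them was called.

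**Figure D3:**
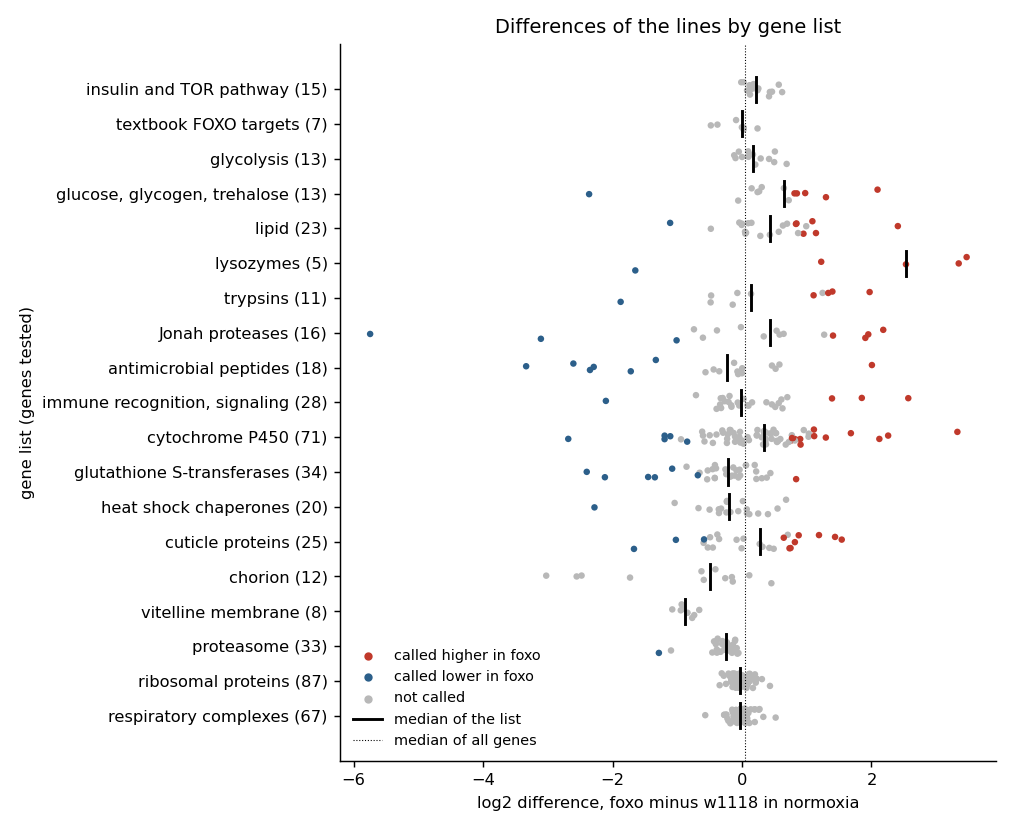
Each point is the log2 difference of 1 gene, *foxo* mutants minus w1118 in normoxia, for 19 gene lists (rows, with the number of genes tested), with black bars at the list medians and a dotted line at the median of all genes, 0.04. Calls in both directions stand among the digestive, immune and detoxification lists, and 0 calls among the ribosomal proteins and respiratory complexes.

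Digestive enzymes of the gut showed some of the widest spread. Of 5 lysozyme genes tested 4 were higher and 1 lower in the mutants, of 11 trypsins 4 higher and 1 lower, of 16 Jonah proteases 4 higher and 3 lower, and of 12 maltases and amylases 2 higher and 0 lower, against 5.14% and 2.84% of all genes. In fits that left out 1 library 0 of the 5 lysozyme calls were lost, 1 of the 5 trypsin calls, 2 of the 7 Jonah calls and 1 of the 2 amylase calls. The 1 lower trypsin was *gammaTry*, whose sum with its near-identical copies was not called (log2 difference −0.51, SE 0.26, limma adjusted p = 0.294). The lysozymes of the midgut digest bacteria taken with the food. *LysD* (3L:1210717-1211196) had 2168, 1951, 1508 and 2159 TPM in the mutant libraries, against 192, 59.7 and 447 TPM in the w1118 libraries. The mutants differed by 3.47 on the log2 scale (SE 0.42, limma adjusted p = 6.43e-05). All mutant libraries lay above all w1118 libraries, of which library 3 was the lowest and library 4 the highest. *LysB*, *LysD* and *LysE* are near-identical, and their sum was higher in the mutants (log2 difference 3.39, SE 0.42, limma adjusted p = 7.87e-05). *LysP*, which salivary glands express, was higher by a smaller amount (167 ± 20.7 TPM in the mutants and 70.97 ± 9.47 TPM in w1118, log2 difference 1.22, SE 0.22, limma adjusted p = 0.00194). *LysX*, by contrast, had 31.6, 42.99, 25.9 and 19.95 TPM in the mutant libraries, against 121, 59.3 and 112 TPM in the w1118 libraries. This made a log2 difference of −1.65 (SE 0.33, limma adjusted p = 0.00438). In whole flies, fewer cells of a type and less RNA per cell cannot be told apart.

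Among the trypsins, *alphaTry* had 5808, 5587, 3959.6 and 4522 TPM in the mutant libraries, against 2184, 2296 and 2368 TPM in the w1118 libraries. The log2 difference was 1.11 (SE 0.19, limma adjusted p = 0.00124). *betaTry* (1957 ± 488 TPM in the mutants and 747 ± 216 TPM in w1118, log2 difference 1.40, SE 0.25, limma adjusted p = 0.00201) and *epsilonTry* (605 ± 179.9 TPM in the mutants and 150.5 ± 33.1 TPM in w1118, log2 difference 1.97, SE 0.29, limma adjusted p = 0.000381) were higher in every mutant library than in any w1118 library. Of the Jonah proteases *Jon25Bi* had 1504, 1213, 1211 and 1345 TPM in the mutant libraries, against 253, 359.7 and 469 TPM in the w1118 libraries (log2 difference 1.91, SE 0.23, limma adjusted p = 5.59e-05), and *Jon44E* (log2 difference 2.18, SE 0.36, limma adjusted p = 0.000873) was higher as well, while *Jon66Ci* and its neighbour *Jon66Cii* (log2 difference −3.11, SE 0.40, limma adjusted p = 0.000107) were lower. The family held calls in both directions. *Jon99Cii* and *Jon65Aiv*, its most abundant members, were not called (log2 difference −0.74, SE 0.32, limma adjusted p = 0.197, and log2 difference 0.34, SE 0.19, limma adjusted p = 0.352). The amylase genes *Amy-p* and *Amy-d*, which digest starch, are copies of each other and their sum was higher in the mutants (log2 difference 1.07, SE 0.21, limma adjusted p = 0.0046). The 5 gut markers set for this comparison are themselves trypsins, Jonah proteases and a lysozyme, with a summed level of 10890.0 to 14409 TPM in the mutants and 8079 to 12007 TPM in w1118, and 3 of the 5 were called higher. The part of gut mass in these differences was not tested.

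Several genes of carbohydrate stores and lipids were higher in the mutants, where 5.14% of all genes tested were called higher and 2.84% lower. Of 13 genes of gluconeogenesis, glycogen, trehalose and the adipokinetic hormone 5 were higher and 1 lower, with a median of 0.65, and of 23 lipid genes 6 were higher and 1 lower, with a median of 0.43, beside a median of 0.04 over all genes. *Tps1*, which makes trehalose, the main blood sugar of flies, had 393, 339, 264 and 280.5 TPM in the mutant libraries, against 146, 101 and 141 TPM in the w1118 libraries. On the log2 scale the difference was 1.30 (SE 0.23, limma adjusted p = 0.0015). *UGP*, which makes UDP-glucose for glycogen, was higher too (193 ± 8.02 TPM in the mutants and 107 ± 7.31 TPM in w1118, log2 difference 0.85, SE 0.19, limma adjusted p = 0.00846). No mutant library overlapped w1118 in either gene. *tobi*, an alpha-glucosidase gene that responds to diet and insulin, had 55.1, 51.8, 33.9 and 16.9 TPM in the mutant libraries, against 12.6, 7.996 and 4.27 TPM in the w1118 libraries (log2 difference 2.09, SE 0.49, limma adjusted p = 0.0137), and was not called without w1118 library 4 (limma adjusted p = 0.0827). *fbp*, the gluconeogenic fructose bisphosphatase, and *AkhR*, the receptor of the hormone that mobilises stores, were also called (log2 differences 0.81 and 0.98), but each lost the call in most of the fits that left out 1 library. Against this direction stood *CG10924*, a phosphoenolpyruvate carboxykinase of gluconeogenesis (2R:18527430-18535749), with 2.02, 2.66, 2.23 and 2.21 TPM in the mutant libraries, against 20.2, 8.52 and 22.7 TPM in the w1118 libraries. The mutants differed by −2.36 on the log2 scale (SE 0.32, limma adjusted p = 0.000191). Its mutant libraries agreed closely and w1118 library 3 was the lowest of its line.

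*Lsd-1*, the perilipin that coats lipid droplets and controls lipolysis (3R:23763857-23766662), had 396, 369, 266 and 304 TPM in the mutant libraries, against 61.2, 54.5 and 69.3 TPM in the w1118 libraries (log2 difference 2.41, SE 0.21, limma adjusted p = 2.03e-06), the smallest p of the lipid genes. The lowest mutant library stood far above the highest w1118 library. *Desat1*, a fatty acid desaturase, was higher (903 ± 127 TPM in the mutants and 503 ± 30.98 TPM in w1118, log2 difference 0.83, SE 0.18, limma adjusted p = 0.00783), and so were the fatty acid synthesis genes *FASN1* (log2 difference 1.14, SE 0.34, limma adjusted p = 0.046) and *ACC* (log2 difference 0.95, SE 0.26, limma adjusted p = 0.0346), both with adjusted p near the threshold and lost when most single libraries were left out. The lipase gene *mag* was higher too (log2 difference 1.09, SE 0.26, limma adjusted p = 0.0133), but not without w1118 library 2 (limma adjusted p = 0.0891) or 3 (limma adjusted p = 0.0606). *GLaz*, a lipocalin that carries lipids and guards against oxidative stress, was the gene called lower, with 10.4, 11.3, 10.8 and 11.9 TPM in the mutant libraries, against 24.8, 26.96 and 23.8 TPM in the w1118 libraries. This made a log2 difference of −1.11 (SE 0.16, limma adjusted p = 0.000291). The storage droplet protein *Lsd-2* was not called (264 ± 22.3 TPM in the mutants and 269 ± 61.8 TPM in w1118, log2 difference −0.01, SE 0.26, limma adjusted p = 0.998). Of 3 fat body markers tested 0 were called, with sums of 7034 to 8414 TPM in the mutants and 5152 to 9669 TPM in w1118. *apolpp*, the main lipoprotein of the hemolymph, had 220.2, 226, 250.5 and 168 TPM in the mutant libraries, against 95.8, 82.5 and 155 TPM in the w1118 libraries. The log2 difference was 0.99 (SE 0.35, limma adjusted p = 0.0992).

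Of the antimicrobial peptide genes tested, most calls were on the lower side. These peptides are made by the fat body and by epithelia under the IMD and Toll pathways. Of 18 tested, 6 were lower and 1 higher in the mutants, with a median of −0.24. Over all genes tested 2.84% were called lower and 5.14% higher. *Mtk*, the antifungal metchnikowin (2R:15408846-15409113), had 51.9, 63.1, 61.8 and 50.1 TPM in the mutant libraries, against 759, 372 and 687 TPM in the w1118 libraries. On the log2 scale the difference was −3.34 (SE 0.40, limma adjusted p = 4.91e-05). *DptB*, a diptericin, had 10.4, 10.1, 10.8 and 15.3 TPM in the mutant libraries, against 101, 77.7 and 53.7 TPM in the w1118 libraries. The mutants differed by −2.61 on the log2 scale (SE 0.54, limma adjusted p = 0.0062). *AttC* (7.21 ± 0.856 TPM in the mutants and 45.3 ± 27.1 TPM in w1118, log2 difference −2.35, SE 0.46, limma adjusted p = 0.00395), *AttD* (1.62 ± 0.673 TPM in the mutants and 12.6 ± 6.16 TPM in w1118, log2 difference −2.29, SE 0.30, limma adjusted p = 0.000133) and *CecC* (log2 difference −1.72, SE 0.29, limma adjusted p = 0.00124) were lower as well. For all 5, every mutant library lay below every w1118 library. *Drs*, the antifungal drosomycin and the most abundant of the peptides, was not called (1035 ± 238 TPM in the mutants and 1018 ± 60.2 TPM in w1118, log2 difference −0.00, SE 0.19, limma adjusted p = 1), while its relative *Drsl4* was higher (106 ± 31.8 TPM in the mutants and 24.7 ± 1.96 TPM in w1118, log2 difference 2.01, SE 0.44, limma adjusted p = 0.00909). *CecA2* was called lower, though not in 5 of the 7 fits that left out 1 library, and its sum with the near-identical *CecA1* was lower (log2 difference −0.98, SE 0.23, limma adjusted p = 0.0155), whereas the sum of *AttA* and *AttB* was not called (log2 difference 0.12, SE 0.29, limma adjusted p = 0.876).

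The next counts stand beside 5.14% of all genes tested called higher and 2.84% lower. Of 28 genes of peptidoglycan recognition and immune signaling 3 were higher and 1 lower in the mutants, with a median of −0.01. The higher ones were the amidases that break down peptidoglycan in the gut: the sum of the copies *PGRP-SC1a* and *PGRP-SC1b* was higher (log2 difference 2.33, SE 0.41, limma adjusted p = 0.00169) and *PGRP-SC2* had 343, 422, 276 and 309 TPM in the mutant libraries, against 176, 87.3 and 132 TPM in the w1118 libraries. This made a log2 difference of 1.39 (SE 0.28, limma adjusted p = 0.00508). The lower one was *PGRP-SD*, a secreted recognition protein that promotes IMD signaling, with 10.01, 11.9, 7.57 and 5.69 TPM in the mutant libraries, against 45.96, 29.6 and 46.4 TPM in the w1118 libraries. The log2 difference was −2.10 (SE 0.42, limma adjusted p = 0.00444). All mutant libraries were below all w1118 libraries. Of 16 Bomanins and related peptides 2 were higher and 0 lower, both calls lost in at least 1 fit that left out a library, led by *IM33* (1925 ± 382 TPM in the mutants and 1033 ± 200.2 TPM in w1118, log2 difference 0.90, SE 0.21, limma adjusted p = 0.013), a call lost under median-of-ratios scaling (limma adjusted p = 0.0824) and without w1118 library 3. *TotX*, of the Turandot family of secreted stress peptides, had 91.1, 96.9, 53.7 and 61.8 TPM in the mutant libraries, against 6.46, 11.6 and 9.12 TPM in the w1118 libraries (log2 difference 2.92, SE 0.29, limma adjusted p = 9.19e-06), while *TotA* overlapped (44.8 ± 12.2 TPM in the mutants and 46.4 ± 15.3 TPM in w1118). Hemocyte markers had 0 calls of 3, at 3.66 to 8.47 TPM in sum in the mutants and 5.87 to 8.19 TPM in w1118.

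The next 4 genes were put together after their low values in the mutants had been seen, so they stand for no wider group. *CG33926* (*Srg3*), *CG42825* (*Srg2*) and *CG13641* (*Srg1*) are known as genes regulated by STING. *CG33926* had 35.2, 29.2, 10.9 and 11.4 TPM in the mutant libraries, against 491, 198 and 179 TPM in the w1118 libraries. The fitted log2 difference was −3.70 (SE 0.39, limma adjusted p = 1.33e-05). *CG42825* (log2 difference −3.95, SE 0.40, limma adjusted p = 8.89e-06) and *CG13641* (log2 difference −2.70, SE 0.22, limma adjusted p = 1.11e-06) were lower as well. *Vago*, a secreted antiviral factor, had 33.9, 29.6, 22.7 and 27.3 TPM in the mutant libraries, against 258, 138 and 103 TPM in the w1118 libraries. On the log2 scale the difference was −2.42 (SE 0.46, limma adjusted p = 0.00312). w1118 library 2 held the highest value in each of these genes, and the lowest w1118 library still lay above every mutant library.

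Detoxification enzymes held calls in both directions, beside 5.14% of all genes tested called higher and 2.84% lower. Of 71 cytochrome P450 genes 13 were higher and 5 lower in the mutants (median 0.34), and of 34 glutathione S-transferases 1 was higher and 6 lower (median −0.21). *Cyp6a23* (26.3 ± 10.4 TPM in the mutants and 4.46 ± 1.06 TPM in w1118, log2 difference 2.26, SE 0.32, limma adjusted p = 0.000277) and *Cyp6a21* (30.04 ± 12.3 TPM in the mutants and 5.74 ± 1.21 TPM in w1118, log2 difference 2.12, SE 0.31, limma adjusted p = 0.000324) led the P450 genes without a near-identical copy that were higher, and *Cyp304a1* (0.369 ± 0.161 TPM in the mutants and 9.93 ± 8.51 TPM in w1118, log2 difference −2.69, SE 0.38, limma adjusted p = 0.000237) led the lower ones. Of the 18 P450 calls, 11 were lost in at least 1 fit that left out a library, and so were 4 of the 7 transferase calls. The transferase *GstD1*, which conjugates glutathione to insecticides and lipid peroxides (3R:12367817-12369268), had 245, 328, 189 and 171 TPM in the mutant libraries, against 1156, 882 and 934 TPM in the w1118 libraries. The mutants differed by −2.12 on the log2 scale (SE 0.21, limma adjusted p = 6.63e-06). *GstD3*, of the same gene cluster, had 6.86, 5.08, 6.16 and 5.16 TPM in the mutant libraries, against 33.8, 33.7 and 36.9 TPM in the w1118 libraries. This made a log2 difference of −2.40 (SE 0.15, limma adjusted p = 7.50e-08). The lines stood far apart in both genes. *GstD2*, *GstD5* and *GstD9* of the cluster were also called lower (log2 differences −1.35, −1.08 and −1.45), *GstD5* and *GstD9* not in every fit without 1 library. Of 25 UDP-glycosyltransferases 2 were higher and 2 lower, and 2 of these 4 calls were lost in the same way.

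The 16 oxidant defense genes had 0 calls (4 at an unadjusted limma p under 0.05; median −0.02), with *Sod1* at 949 ± 83.9 TPM in the mutants and 945 ± 82.1 TPM in w1118. Of 20 heat shock chaperones 1 was called, the small chaperone *Hsp23*, with 2.803, 3.04, 2.02 and 3.42 TPM in the mutant libraries, against 16.4, 21.9 and 14.6 TPM in the w1118 libraries. The log2 difference was −2.28 (SE 0.22, limma adjusted p = 6.40e-06). All mutant libraries lay far below w1118, while *Hsp26*, of the same family, did not pass the test (1092 ± 129 TPM in the mutants and 1283 ± 139 TPM in w1118, log2 difference −0.23, SE 0.19, limma adjusted p = 0.562). Among 11 metal-binding genes 2 were higher and 2 lower, with 3 of the 4 calls lost in at least 1 fit that left out a library. Over all genes tested 5.14% were called higher and 2.84% lower. *Tsf1*, the iron carrier transferrin, was higher (261 ± 134 TPM in the mutants and 59.1 ± 8.74 TPM in w1118, log2 difference 1.98, SE 0.46, limma adjusted p = 0.0131) but not without w1118 library 3 (limma adjusted p = 0.0648), and the metallothionein *MtnE* was lower (93.9 ± 17.7 TPM in the mutants and 200.3 ± 26.7 TPM in w1118, log2 difference −1.10, SE 0.21, limma adjusted p = 0.00323).

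**Figure D4:**
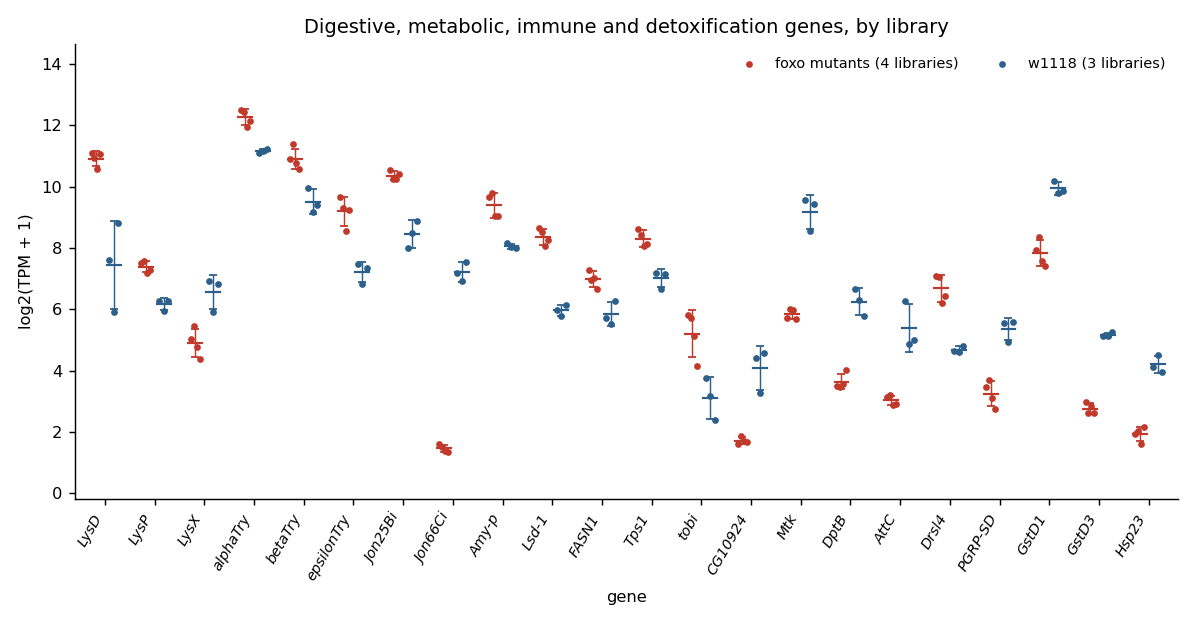
Points are single libraries on log2(TPM + 1) for 22 genes of digestion, metabolism, immunity and detoxification, mutants left of w1118 for each gene, with the mean and SD as bars. *LysD*, *alphaTry*, *Lsd-1* and *Tps1* stand higher in the mutants, and *LysX*, *Jon66Ci*, *CG10924*, *Mtk*, *GstD1* and *Hsp23* lower.

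Eggshell genes, which follicle cells of late egg chambers express in short bursts, had low medians in the mutants and 0 calls. The 12 chorion genes had a median of −0.50 (4 at an unadjusted limma p under 0.05) and the 8 vitelline membrane genes a median of −0.88 with none above 0 (3 unadjusted). Summed, the chorion genes stood at 6104, 4573, 13541 and 20560.0 TPM in the mutant libraries, against 26560.0, 15504 and 15355 TPM in w1118. The mutant libraries ran over a wide range that overlapped w1118. The vitelline genes summed to 10695, 6574, 12150.0 and 7216 TPM in the mutants, against 14241, 14559 and 23402 TPM in w1118, with no overlap. The 4 follicle cell markers had a median of −1.71, with sums of 3565 to 10279 TPM in the mutants and 10992 to 13247 TPM in w1118. *Cp16* is one of them, with 319, 24.1, 599 and 1209 TPM in the mutant libraries, against 1813, 1663 and 1211 TPM in the w1118 libraries. On the log2 scale the difference was −2.48 (SE 0.92, limma adjusted p = 0.125). The part of these levels in other differences was not tested.

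Yolk and germline genes had list medians of 0.12 and 0.15, beside 0.04 over all genes tested, of which 7.98% were called. Of 5 yolk genes 0 were called (0 at an unadjusted limma p under 0.05), with *Yp1* at 7469.6 ± 580.1 TPM in the mutants and 7404 ± 2232 TPM in w1118 (log2 difference 0.06, SE 0.28, limma adjusted p = 0.945), and the germline markers summed to 520.3 to 657 TPM in the mutants and 479 to 607 TPM in w1118. Of 15 germline and maternal genes 1 was called, *aub*, a piRNA factor, higher in the mutants (43.1 ± 7.34 TPM in the mutants and 23.1 ± 2.14 TPM in w1118, log2 difference 0.86, SE 0.25, limma adjusted p = 0.0418), a call that each fit without 1 library lost. Markers of neurons (0 of 4 called, median 0.59), photoreceptors (0 of 4, median 0.18) and spermatheca (0 of 2, median −0.53) were not called, and 2 of 4 Malpighian tubule markers were called higher. Of these, *Irk1* was not called in any of the 7 fits that left out 1 library, and *CG3690* was not called without w1118 library 2. The tubule marker *Uro* went the other way without a call (log2 difference −0.98, SE 0.30, limma adjusted p = 0.0521), and 3 of the 4 lay above 0. Summed, the 4 stood at 93.8 to 130 TPM in the mutants and 91.1 to 142 TPM in w1118. Of the male seminal fluid genes *SP* was listed at 0 in all 7 libraries and *Acp26Aa* reached at most 0.137 TPM.

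Of 25 cuticle proteins 8 were higher and 3 lower in the mutants (median 0.27), with *Cpr51A* (6.14 ± 0.818 TPM in the mutants and 1.47 ± 0.475 TPM in w1118, log2 difference 1.54, SE 0.19, limma adjusted p = 5.66e-05) and *Cpr72Ec* (1.39 ± 0.312 TPM in the mutants and 6.58 ± 0.686 TPM in w1118, log2 difference −1.67, SE 0.22, limma adjusted p = 0.000131) having the smallest p in each direction. Of the 11 cuticle calls, 5 were lost in at least 1 fit that left out a library. For this list and the next, the shares called over all genes tested are 5.14% higher and 2.84% lower. Of 21 muscle genes 3 were higher and 0 lower (median 0.28): the myosin heavy chain *Mhc* (83.5 ± 6.23 TPM in the mutants and 44.5 ± 3.48 TPM in w1118, log2 difference 0.89, SE 0.21, limma adjusted p = 0.0133), *Prm* and *Act79B*. Each of them was lost without at least 1 library, and the muscle markers summed to 294 to 349 TPM in the mutants and 249 to 267 TPM in w1118. Of 10 clock genes *vri* and *tim* were higher (log2 differences 0.94 and 1.05), and *tim* was not called in 6 of the 7 fits that left out 1 library. *vri*, a repressor in the clock, had 22.7, 26.2, 23.3 and 20.3 TPM in the mutant libraries, against 12.5, 10.2 and 11.9 TPM in the w1118 libraries (log2 difference 0.94, SE 0.21, limma adjusted p = 0.00831), and was not called without w1118 library 3 (limma adjusted p = 0.0523). The time of day of collection is not given in the sources used here. Of the other lists, 0 of 17 cell cycle regulators (1 at an unadjusted limma p under 0.05) and 0 of 21 nuclear receptors and hormone response genes (1 unadjusted) were called. Of 28 odorant-binding proteins 1 was higher and 2 lower, the lower pair being *Obp99a* (33.98 ± 18.2 TPM in the mutants and 279 ± 78.3 TPM in w1118, log2 difference −3.18, SE 0.60, limma adjusted p = 0.00273) and *Obp99c* (484 ± 117 TPM in the mutants and 1306 ± 134 TPM in w1118, log2 difference −1.46, SE 0.29, limma adjusted p = 0.00386). The odorant-binding list is too short to set its calls apart from the share over all genes. Of 314 long noncoding RNA genes 30 were higher and 31 lower, beside 5.14% and 2.84% of all genes tested. After *CR40469* the one with the smallest p was *CR45570*, with 0, 0.0778, 0.138 and 0.0543 TPM in the mutant libraries, against 6.77, 4.74 and 7.65 TPM in the w1118 libraries.

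The 10 called genes with the highest levels over the 7 libraries included abundant gut enzymes and secreted products. *CG12374*, a carboxypeptidase, had 4764, 5586, 4702 and 4234 TPM in the mutant libraries, against 1099.8, 1659 and 2346 TPM in the w1118 libraries. The lines differed by 1.56 on the log2 scale (SE 0.28, limma adjusted p = 0.00189). *Adh*, the alcohol dehydrogenase, was higher (2388 ± 339 TPM in the mutants and 1498 ± 191 TPM in w1118, log2 difference 0.67, SE 0.14, limma adjusted p = 0.00768). *CG1678* had 4339, 3101, 3562 and 3762 TPM in the mutant libraries, against 7180.4, 7339 and 7386 TPM in the w1118 libraries (log2 difference −0.99, SE 0.17, limma adjusted p = 0.00124), and *CG16826* was lower as well (log2 difference −0.86, SE 0.19, limma adjusted p = 0.00795). The lines did not overlap in these 4 genes. Under median-of-ratios scaling *Adh* (limma adjusted p = 0.0556) and *CG16826* (limma adjusted p = 0.0614) were not called. Beyond the lists, and noticed after the values had been seen, *Gnmt*, which uses S-adenosylmethionine to methylate glycine, had 2.200, 2.84, 0.952 and 0.931 TPM in the mutant libraries, against 154, 14.9 and 8.702 TPM in the w1118 libraries (log2 difference −3.47, SE 0.71, limma adjusted p = 0.00562), with w1118 library 2 far above the other w1118 libraries. *CG11796* (*Hpd*), a dioxygenase of tyrosine breakdown, was lower (9.25 ± 2.46 TPM in the mutants and 52.3 ± 12.97 TPM in w1118, log2 difference −2.38, SE 0.22, limma adjusted p = 3.64e-06), and *Cbs*, which makes cystathionine from homocysteine, was higher (198 ± 16.02 TPM in the mutants and 55.2 ± 25.7 TPM in w1118, log2 difference 1.91, SE 0.25, limma adjusted p = 0.000117).

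The line difference was measured again in the 8 hypoxia libraries, none of which enters the normoxia means, although one model supplied the spread for both. There 711 genes were higher (6.91% of those tested) and 755 lower (7.34%) in the mutants. Of the 529 genes higher in normoxia 316 were also called higher in hypoxia, which is 59.7% of the normoxia list and 44.4% of the hypoxia list. Of the 292 lower genes 207 were also called lower, or 70.9% of the normoxia list and 27.4% of the hypoxia list. By sign alone 91.7% of the higher and 94.2% of the lower genes kept their direction, whereas 27.9% of all genes lay above 0 and 72.0% below 0 in hypoxia. The median difference of all genes there was −0.22 and became 0.003 with median-of-ratios scaling, which gave 992 genes higher and 449 lower in hypoxia, so the split of those calls depends on the scaling. With that scaling 501 of the 529 and 263 of the 292 genes still had the same sign. Across the 10288 genes, which are not independent replicates, the differences in normoxia and hypoxia correlated at r = 0.67.

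Genes named above that differed alike in both conditions include *CR40469* (8.15 in hypoxia, limma adjusted p = 6.57e-11), *CG16775* (−4.09), *Lsd-1* (2.61), *Tps1* (1.24), *GLaz* (−1.08) and *CG30382* (−1.33), each called in hypoxia and with no interaction passing the threshold. For others the interaction passed the threshold. The difference of *Mtk* was smaller in hypoxia (−0.46 in hypoxia, limma adjusted p = 0.389, adjusted p = 0.00853 for the interaction) and so were those of *Hsp23* (0.30 in hypoxia, adjusted p = 0.000291 for the interaction) and *PGRP-SD* (0.61, adjusted p = 0.0169 for the interaction). *AttD* was lower in both (−3.15 in hypoxia). The difference of *CG10924* was larger in hypoxia (−5.07, adjusted p = 0.00334 for the interaction), as was that of *epsilonTry* (4.42, adjusted p = 0.00319). Of the 821 genes called in normoxia 82 passed the test of the interaction, 56 of them higher and 26 lower in normoxia. All interactions here rest on TPM without further scaling, where the median over all genes was 0.04 in normoxia and −0.22 in hypoxia. The number that pass under median-of-ratios scaling is not given here, so the 82 and their split may depend on the scaling. *tobi* stood at −1.23 in hypoxia (limma adjusted p = 0.0808, adjusted p = 0.0137 for the interaction). 9 genes were called in opposite directions in the conditions, 6 of them higher in normoxia and 3 lower, *IM33* and *fbp* among the 6 (−0.79 and −0.72 in hypoxia) and *GstD5* among the 3 (0.70).

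**Figure D5:**
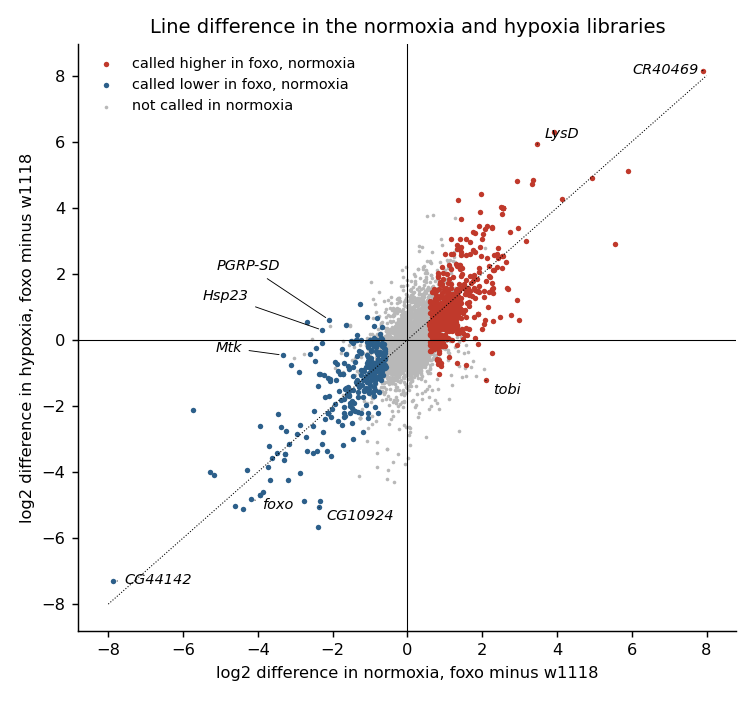
Each point is a gene, with the log2 difference of *foxo* mutants minus w1118 in normoxia (x axis) and in hypoxia (y axis), and the dotted line marks equal differences. Most of the 529 genes called higher and 292 called lower in normoxia lie on the same side of 0 in hypoxia, while *Mtk*, *Hsp23* and *PGRP-SD* lie near or above 0 there.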

How the data were processed

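Whole mated females were profiled by poly-A RNA sequencing (directional NEB kit, NextSeq 500). The authors pseudoaligned the reads with kallisto to the RefSeq mRNAs of dm6 and tested them with sleuth. For both tools the version is not given in the sources used here. Deposited TPM per transcript cover 15 libraries, and TPM were summed here per gene name (17031 genes). The authors' tables of hypoxia-regulated genes hold p, q, effect sizes and fold changes of hypoxia against normoxia and were not used.

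Genes with a mean of at least 1 TPM in 1 of the 4 groups were tested on log2(TPM + 1) with limma 3.58.1 (R 4.3.3), a trended variance and Benjamini-Hochberg adjustment over 10288 genes. The fit held all 15 libraries, with one estimate of spread for all groups (11 residual degrees of freedom). A gene was called at an adjusted p under 0.05 and more than 1.5-fold. In data simulated for this comparison over 10288 genes, 10% of 50 genes changed 1.5-fold were called, 64% at 2-fold, 96% at 4-fold and 96% at 8-fold. The changed genes were drawn only from those with a mean level above about 10 TPM, so these shares do not cover lower genes.

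The genes and lists were chosen with earlier results of these data known. Genes were named by rule: *foxo* and *w*, the 10 largest called differences in each direction with 10 TPM in one line and no overlap, up to 5 called genes per direction seen in one line only, the 10 called genes of highest level, 2 members of each list by p and 2 by level, and up to 3 called genes on each side of *foxo*. Further list members, the neighbours of *foxo*, and *CG33926*, *CG13641*, *Vago*, *Gnmt*, *CG11796* and *Cbs* were named after their values were seen. The P450 list was trimmed of 2 cyclophilins, *Cyp1* and *Cyp33*, after values were seen. Replicate numbers are not stated to pair the lines. The alternatives changed the pseudocount, filter, scaling, libraries fitted, variance trend, length correction, replicate block and thresholds.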

Additional observations from a re-analysis of the deposited data

Results flagged for a closer look

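In 79 called genes the 4 mutant libraries were checked for a single library far from the rest, and 2 were found, where chance marks about 1 in 20 groups. *CG16775* stood at 1.13 TPM in its highest mutant library, and *His1:CG33858* at 0.491 TPM in its highest mutant library. Both levels are near 0 beside w1118.

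By the limma interaction test the line difference was not the same in hypoxia as in normoxia for 17 of the 79 called genes. The test also passed for genes named by the rule but not called in normoxia: *Hn* (adjusted p = 0.00146), *TotM* (0.0387), *Cpr49Ab* (0.0409), *Yp3* (0.0436), *Thor* (0.0443) and *Ilp6* (0.0487). It used TPM without further scaling. Values for the 17 are the difference in hypoxia minus that in normoxia on the log2 scale. Among digestive genes it was 3.62 for *Jon66Ci* (adjusted p = 0.00231), 2.46 for *LysD* (0.0334), 2.44 for *epsilonTry* (0.00319), 1.53 for *Jon25Bi* (0.0145) and 1.16 for *alphaTry* (0.0231). Among immune and stress genes it was 2.88 for *Mtk* (0.00853), 2.72 for *PGRP-SD* (0.0169), 2.58 for *Hsp23* (0.000291), 1.89 for *TotX* (0.0182), 1.01 for *GstD3* (0.0151) and −1.69 for *IM33* (0.00419). Among the other genes it was 0.78 for *Adh* (0.0482), −2.70 for *CG10924* (0.00334), −2.10 for *CR45570* (0.000206), −1.40 for *Cpr51A* (0.00652), −1.17 for *Desat1* (0.0168) and −0.95 for *CG14857* (0.0296).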

How the results depend on the processing

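Of 79 called genes named by the rule, 58 were called in each of the 19 refitted alternatives that tested them. The call was lost in at least 1 for 21, and 0 values changed sign. A gene dropped by a filter or summed into its copies was not counted as lost. *CG30025*, *CG32581*, *Cyp12d1-d*, *Ada1-1*, *His1:CG33816* and *His1:CG33858* are among the 58, although the sums over their copies were not called. Against 529 genes called higher, a fit of the 7 normoxia libraries alone gave 844. Over 2-fold, 292 genes were higher and 177 lower, and at an adjusted p under 0.01, 280 and 182. Leaving out each library in turn gave 300 to 498 higher and 208 to 269 lower, with 348 higher without w1118 library 2 and 300 without w1118 library 3. The share of higher genes also called higher in hypoxia was 65.8% with a pseudocount of 0.1 and 55.3% with 5, and the share of lower genes also called lower was 53.2% with median-of-ratios scaling. The causes were not tested. Counts under the other settings stayed within 1.5 times, and summing near-identical copies, chosen after seeing the data, gave 513 and 278.

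A fit with a replicate block called 528 genes higher and 279 lower. Same-numbered libraries of the lines had residual correlations of 0.169, 0.047 and −0.119. Those of unlike number ran from −0.184 to 0.277, so these few values cannot tell whether the numbers pair the libraries. TPM keep no read number, so what depth limits cannot be given. Most of the simulated 1.5-fold changes were missed. A call also needs an estimate above 1.5-fold, so that share cannot be laid to the number of pools alone.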
